A study of Mus musculus with 4 samples.

Results

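The proteasome genes described here are the 37 constitutive subunit, cap and assembly genes of the table, chosen by symbol as parts of the complex or of its assembly, with no measured value in the rule, out of 55414 genes listed in all. They comprise 7 genes of the alpha ring and 4 of the beta ring of the 20S core, 6 ATPases and 12 non-ATPase subunits of the 19S cap, 5 assembly factors of the core, and 3 genes of other caps and of an inhibitor. All 37 symbols were found in the table, and all 37 passed the filter on low counts. RNA was sequenced from mouse peritoneal macrophages, phagocytes of the abdominal cavity, given LUP at 0.5 mg/ml for 24 h (2 libraries) or complete medium alone as vehicle for 24 h (2 libraries). The abbreviation LUP stands unexplained in the labels, which also give no strain, genotype, sex or age. Whether the 2 libraries per group derive from different animals or cultures is not stated, so p-values here measure the spread between these libraries, which may be technical.

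The proteasome is the barrel-shaped protease that degrades ubiquitin-tagged proteins in the cytosol and nucleus. Alpha and beta subunits stack into the 20S core, whose beta rings hold the cutting sites, and the 19S cap binds ubiquitin chains, unfolds the substrate with its ring of ATPases and feeds it into the core. Dedicated chaperones build the core, and other caps can replace the 19S. In macrophages the fragments feed class I antigen presentation, and interferons exchange some core subunits for immunoproteasome forms.

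Expected counts summed to 22460913 to 23617618 in the LUP libraries and to 19949818 to 23172691 in the vehicle libraries. All 10 macrophage markers checked were detected, at a summed level of 21566 and 21760 TPM (transcript abundance corrected for gene length and scaled to a common total) in the LUP libraries and 27380 and 27010.1 TPM in the vehicle libraries, most of it Lyz2. By marker, 5 of the 10 were higher in both LUP libraries (Adgre1, Csf1r, Itgam, Cd14 and Fcgr1), 4 were lower (Lyz2, Cd68, Mertk and Gata6) and Icam2 overlapped. Adgre1, the F4/80 antigen, stood at 587 and 584 TPM with LUP and 115 and 123 TPM with vehicle. Gata6, a factor of resident peritoneal macrophages, was low, at 1.34 and 1.1 TPM with LUP and 2.67 and 3.59 TPM with vehicle. The 8 neutrophil markers summed to 306 and 269 TPM with LUP and 45.5 and 48.4 TPM with vehicle. Nearly all of this was Mmp8 and S100a8, while Ly6g and S100a9 were listed at 0 in every library. Summed levels of the B cell, T and NK cell, mast cell, dendritic cell, eosinophil and erythroid lists stayed at or under 5.01 TPM in every library. The mesothelium and fibroblast list summed to 92.2 and 69.7 TPM with LUP and 64.1 and 73.1 TPM with vehicle. Mitochondrial transcripts took 1.104% and 1.046% of counts in the LUP libraries and 1.143% and 1.14% in the vehicle libraries. The part of the macrophage and neutrophil marker genes in the results below was not tested. In such bulk samples, a different number of cells of a type and a different RNA content per cell cannot be told apart.

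Between LUP and vehicle, the proteasome genes rose almost throughout, by moderate amounts. With LUP, 34 of the 37 were called higher, 1 was called lower and 2 were not called (edgeR's quasi-likelihood test on the expected counts, Benjamini-Hochberg adjusted p under 0.05 over all 13355 genes tested). Over all tested genes, 50.8% were called, 27.1% higher and 23.7% lower. The members' median log2 fold change was 0.63, a 1.55-fold rise, beside a median of -0.001 over all tested genes, of which the upper quartile began at 0.29. The members' changes ran from -0.20 to 1.06 on the log2 scale. All 7 alpha ring genes, all 4 beta ring genes and all 6 ATPases were called higher, with 11 of the 12 non-ATPases, 3 of the 5 assembly factors and all 3 genes of other caps and the inhibitor. The only member called lower was Psmd8, and the members not called were Psmg2 and Psmg3, assembly chaperones of the alpha ring.

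The rise was broad and not steep. Of the 37 genes, 22 were called and at least 1.5-fold higher, against 10.8% of all tested genes, and 1 was called and at least 2-fold higher, against 6.37% of all tested genes. That gene was Psma5. In the distribution of all tested genes, 32 members lay above the upper quartile of change, 13 above the 90th percentile and 0 above the 95th, which stood at a log2 change of 1.32. The TPM of the 2 groups did not overlap for 35 members, 34 with LUP above vehicle and 1 with LUP below. Among all tested genes, 27.6% had LUP above vehicle without overlap and 42.3% had LUP below. Most members were abundant transcripts, with 31 of 37 above the 80th percentile of mean TPM among tested genes. The authors' deposited table gives an adjusted p under 0.05 to 32 of the 37 members, and its share over all genes was not computed. Its log2 fold runs in the other direction, vehicle over LUP, as its sign was opposite to the ratio of LUP over vehicle TPM for 99.82% of 571 well-expressed genes that were over 2-fold apart, so that its log2 fold is below 0 for 31 of these members and above 0 for Psmd8.

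**Figure D1:**
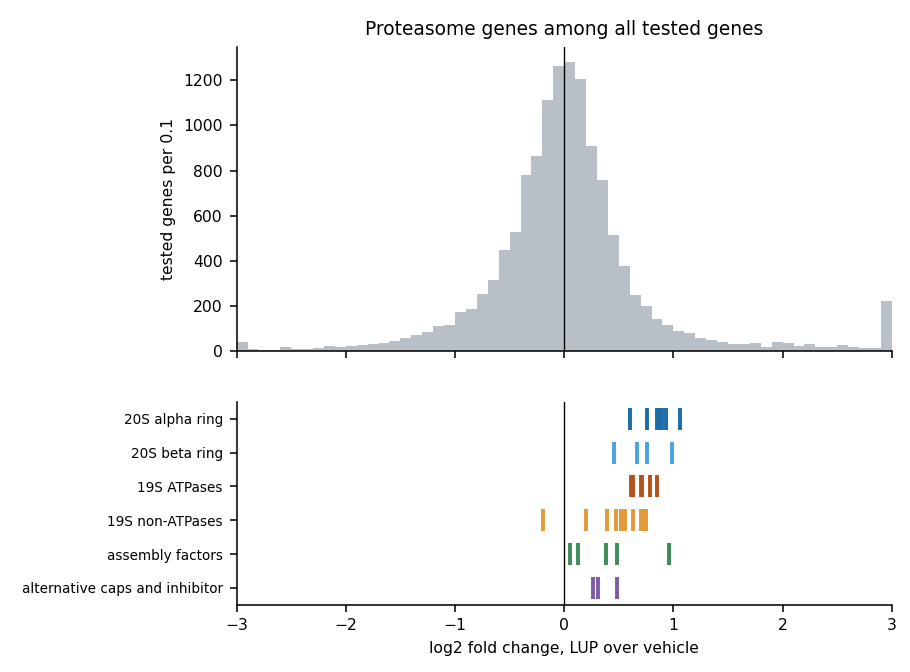
Upper panel, histogram of the log2 fold change (LUP over vehicle) of all 13355 tested genes in steps of 0.1, with genes beyond -3 or 3 in the end bins. Lower panel, one tick for each of the 37 proteasome genes by class on the same axis. The ticks run from -0.20 to 1.06, to the right of the peak of all genes at 0, with the single tick left of 0 being Psmd8.

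By class, the median log2 change was 0.88 for the alpha ring, 0.71 for the beta ring, 0.71 for the ATPases, 0.54 for the non-ATPases, 0.38 for the assembly factors and 0.31 for the other caps and the inhibitor. No test compared the classes with each other. Summed over genes, the alpha ring stood at 1124 and 1072 TPM with LUP and 660.1 and 675 TPM with vehicle, a ratio of 1.65. The non-ATPase sum stood at 1771 and 1738 TPM with LUP and 1561 and 1589 TPM with vehicle, a ratio of 1.11. Psmd8 made up a large part of that sum, and without it the non-ATPases summed to 1217 and 1192 TPM with LUP and 889.6 and 900.2 TPM with vehicle, a ratio of 1.35.

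**Figure D2:**
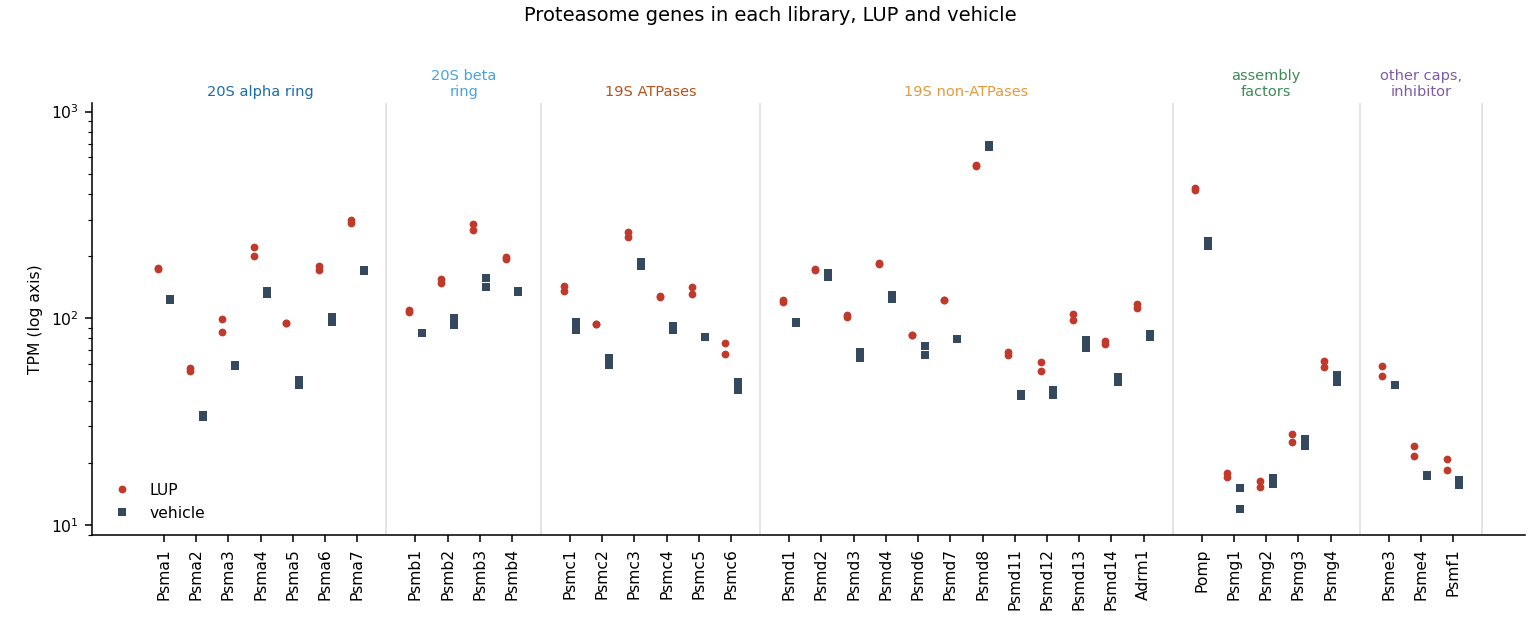
TPM (log axis) of each proteasome gene in every library, by class, with the 2 LUP libraries as circles to the left of the 2 vehicle libraries as squares. LUP lies above vehicle for every gene of the core rings and the ATPases, below it for Psmd8, and the groups overlap for Psmg2 and Psmg3.

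Promoter sequence is shown for 5 genes. Psma5, Psmb3 and Pomp had the largest changes of the alpha ring, beta ring and assembly factors. Psmd8 fell and was added to the set after its values were seen. Psmc6 was taken for its sequence and not for its change. It is the single gene among those given with full values whose window holds the core of the antioxidant response element. Proteasome genes are known to be driven by Nfe2l1, a transcription factor that binds this element. The sequences are the 250 bases before the annotated start, from RefSeq on GRCm38.p6, given 5′ to 3′ on the gene's strand, with matches of TGACNNNGC or CCAAT on either strand in capitals (GCNNNGTCA and ATTGG on the other strand). They lie at chr14:45329574-45329823 (+ strand) for Psmc6, chr3:108256676-108256925 (+) for Psma5, chr11:97703184-97703433 (+) for Psmb3, chr5:147860378-147860627 (+) for Pomp and chr7:29180674-29180923 (- strand) for Psmd8.
Psmc6: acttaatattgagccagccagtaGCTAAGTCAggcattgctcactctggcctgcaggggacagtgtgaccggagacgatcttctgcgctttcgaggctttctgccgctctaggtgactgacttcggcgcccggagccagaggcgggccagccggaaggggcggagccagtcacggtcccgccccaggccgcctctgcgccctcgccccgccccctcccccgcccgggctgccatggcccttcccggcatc
Psma5: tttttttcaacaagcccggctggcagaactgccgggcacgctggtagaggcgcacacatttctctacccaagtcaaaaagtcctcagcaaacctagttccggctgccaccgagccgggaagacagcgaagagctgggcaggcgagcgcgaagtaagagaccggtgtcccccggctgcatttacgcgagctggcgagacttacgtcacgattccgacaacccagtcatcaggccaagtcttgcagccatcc
Psmb3: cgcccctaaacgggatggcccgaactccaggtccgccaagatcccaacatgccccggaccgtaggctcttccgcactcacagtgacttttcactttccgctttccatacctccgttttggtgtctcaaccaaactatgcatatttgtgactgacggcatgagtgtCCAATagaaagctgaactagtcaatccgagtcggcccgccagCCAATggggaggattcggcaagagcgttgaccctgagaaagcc
Pomp: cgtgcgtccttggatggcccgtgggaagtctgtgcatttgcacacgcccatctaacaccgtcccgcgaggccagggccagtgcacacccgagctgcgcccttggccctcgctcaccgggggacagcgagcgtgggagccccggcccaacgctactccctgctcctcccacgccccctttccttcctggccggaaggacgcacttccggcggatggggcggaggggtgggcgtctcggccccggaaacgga
Psmd8: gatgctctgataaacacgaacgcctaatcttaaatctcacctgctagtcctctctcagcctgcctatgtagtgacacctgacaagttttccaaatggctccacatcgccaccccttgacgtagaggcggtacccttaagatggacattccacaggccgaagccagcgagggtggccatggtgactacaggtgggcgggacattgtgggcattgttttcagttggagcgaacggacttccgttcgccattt
The Psmc6 window holds 1 match of the element's core, on the reverse strand and 227 to 219 bases before the start, and the Psmb3 window holds 2 CCAAT boxes, the nearer one 43 to 39 bases before the start. None of these matches overlaps another. The windows of Psma5, Pomp and Psmd8 hold neither motif.

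The RefSeq table held windows for 31 of the 37 genes, 33 windows in all. TGACNNNGC matched in 3 of the 33 windows (9.09%), those of Psmc6, Adrm1 and Psmd12, against 10.16% of all 32851 windows of the table. CCAAT matched in 12 windows (36.36%) against 33.85% of all windows, both shares being close to those of all promoters. GGGCGG, the core of the GC box, matched in either direction in 17 windows (51.52%) against 32.74% of all windows. All windows were not limited to genes tested here, and the gap between these shares was not tested. CCAAT was present in the windows of 5 of the 7 alpha ring genes. The 12 genes with a CCAAT match changed by a median log2 of 0.73 (0.31 to 0.99) and the 19 without one by 0.52 (-0.20 to 1.06). For TGACNNNGC the order was the other way, with a median of 0.56 for the 3 genes with a match and 0.65 for the 28 without one. No test was made of either difference. A match is a string of letters in this window and was not tested as a binding site.

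The alpha ring forms the outer gate of the core, through which substrates enter. All 7 of its genes rose, by 1.52-fold to 2.08-fold. Psma5 (ENSMUSG00000068749) had the largest rise of all 37 genes. It stood at 95.3 and 94.5 TPM in the LUP libraries and 47.4 and 50.4 TPM in the vehicle libraries. Both LUP libraries lay far above both vehicle libraries and close to each other. Its fold was 2.08 (95% interval 1.90 to 2.28, adjusted p = 3.82e-11 by edgeR's quasi-likelihood test). Psma6 (ENSMUSG00000021024) stood at 179 and 171 TPM with LUP and 96.0 and 102 TPM with vehicle. The groups were again clear of each other, and the fold was 1.90 (1.76 to 2.05, adjusted p = 2.14e-11 in edgeR). Psma7 (ENSMUSG00000027566) was the most abundant alpha subunit, with 299.8 and 289.6 TPM with LUP and 170.1 and 171 TPM with vehicle. The vehicle libraries were nearly equal, the LUP libraries differed by more but stayed well above them, and the fold was 1.87 (1.75 to 1.99, adjusted p = 4.01e-12 in edgeR).

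Among the other alpha genes, Psma3 and Psma2 rose 1.83-fold and 1.80-fold and Psma4 1.70-fold. Psma3 had fractional counts, and its log2 change ran from 0.629 to 0.906 over all settings. That of Psma2 ran from 0.732 to 0.908 and that of Psma4 from 0.646 to 0.781, so the order of these genes depended on the setting. Psma1 had the smallest rise of the ring, 1.52-fold, with 175 and 174 TPM with LUP and 124 and 123 TPM with vehicle. TPM levels within the ring were unequal although the ring holds each subunit once as protein. In the LUP libraries they averaged from 56.6 ± 1.37 TPM for Psma2 to 295 ± 7.21 TPM for Psma7 (SD, n = 2), and in the vehicle libraries from 33.7 ± 0.615 TPM to 170.4 ± 0.339 TPM for the same genes. TPM corrects for length, and the gene length is listed as 2911 bases for Psma2 and 914 for Psma7. Their counts lay closer together, at 2451 and 2477 for Psma2 and 3209 and 2992 for Psma7 with LUP. The listed length alone does not give TPM. In LUP replicate 1, Psma3, listed at 2846 bases, had 98.9 TPM from 2020 counts, and Psma2 had 55.6 TPM from 2451. How far length sets the order of levels was not tested. In TPM, Psma7 and Psma4 were the highest pair in both groups. Psma6 and Psma1 averaged 175 ± 5.96 and 174 ± 0.686 TPM with LUP, a gap smaller than their spread, and 98.8 ± 3.97 and 124 ± 0.537 TPM with vehicle.

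The beta ring genes listed here encode the non-catalytic members of the inner ring. All 4 rose. Psmb3 (ENSMUSG00000069744), whose promoter carries the pair of CCAAT boxes printed above, stood at 266 and 285 TPM with LUP and 141 and 156 TPM with vehicle. The lower LUP library was well above the higher vehicle library, and the fold was 1.99 (1.82 to 2.17, adjusted p = 6.24e-11 in edgeR). Psmb2 (ENSMUSG00000028837) stood at 149 and 156 TPM with LUP and 100.5 and 92.7 TPM with vehicle, also without overlap, with a fold of 1.70 (1.54 to 1.87, adjusted p = 1.36e-08 in edgeR). Psmb4 rose 1.58-fold. Psmb1 had the smallest rise, 1.37-fold, at 107 and 109 TPM with LUP and 85.2 and 84.7 TPM with vehicle. The order of levels, Psmb3, Psmb4, Psmb2 and Psmb1 from the top, was the same in both groups.

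The catalytic beta genes, kept as a separate list, also rose, 3 of 3, beside 27.1% of all tested genes called higher. Psmb5, the chymotrypsin-like subunit, averaged 456 ± 14.8 TPM with LUP and 229 ± 4.19 TPM with vehicle (SD, n = 2 each), a 2.14-fold rise (adjusted p = 2.58e-13 in edgeR). Psmb7, the trypsin-like subunit, rose 1.69-fold and Psmb6, the caspase-like subunit, 1.44-fold. The interferon-induced proteasome genes rose further, 5 of 5 by at least 2-fold, against 6.37% of all tested genes. Their rises ran from 2.97-fold to 5.71-fold. The largest was that of Psme2, a subunit of the interferon-induced cap, at 776 and 760.4 TPM with LUP and 123 and 126 TPM with vehicle. Psmb5, Psmb7, Psme2 and the polyubiquitin gene Ubb had fractional counts in some library, so some reads were shared with similar genes. How far this bears on their levels was not tested. The same holds for Psmd5, Zfand2a, Mafg, Vcp, Nsfl1c and Uba1, which are named below. Psmb8, which replaces Psmb5 in the immunoproteasome, stood at 1.20 and 1.16 times the TPM of Psmb5 in the LUP libraries and at 0.576 and 0.601 times in the vehicle libraries. Psme1, the partner of Psme2 in the cap, rose 2.97-fold.

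The ATPases form the ring at the base of the 19S cap that unfolds substrates. Their 6 genes rose within a narrow band, from 1.53-fold for Psmc3 to 1.80-fold for Psmc5. Psmc5 (ENSMUSG00000020708) stood at 142 and 132 TPM with LUP and 81.5 and 81.5 TPM with vehicle, a fold of 1.80 (1.67 to 1.94, adjusted p = 5.3e-11 in edgeR). The vehicle libraries were nearly equal and both LUP libraries were far above them. Psmc6 (ENSMUSG00000021832), whose promoter holds the element's core shown above, stood at 76.3 and 67.3 TPM with LUP and 45.1 and 49.4 TPM with vehicle. The groups did not overlap, and the fold was 1.72 (1.60 to 1.86, adjusted p = 2.92e-10 in edgeR). Psmc1 (ENSMUSG00000021178) stood at 144 and 136 TPM with LUP and 95.6 and 88.1 TPM with vehicle, a fold of 1.64 (1.52 to 1.77, adjusted p = 9.3e-10 in edgeR). Psmc3 (ENSMUSG00000002102), the most abundant ATPase transcript, stood at 262 and 247 TPM with LUP and 179 and 187 TPM with vehicle, again without overlap, with a fold of 1.53 (1.44 to 1.63, adjusted p = 3.38e-10 in edgeR). Psmc3 overlaps an exon of Slc39a13 on the opposite strand in GENCODE M21, a gene with 542 and 496 counts in the LUP libraries and 563 and 612 in the vehicle libraries. Psmc2 and Psmc4 rose 1.63-fold and 1.55-fold.

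The non-ATPase subunits build the scaffold of the base and the lid that bind ubiquitin chains and remove them. Of the 12, 11 rose, by 1.15-fold to 1.68-fold, and 1 fell. Psmd14 (ENSMUSG00000026914), the lid's deubiquitinase, stood at 75.1 and 77.6 TPM with LUP and 49.4 and 52.0 TPM with vehicle. The groups were clear of each other and the fold was 1.68 (1.54 to 1.83, adjusted p = 4.18e-09 in edgeR). Psmd7 (ENSMUSG00000039067), which pairs with Psmd14 in the lid, stood at 122 and 122 TPM with LUP and 79.1 and 79.4 TPM with vehicle, nearly equal within each group, with a fold of 1.66 (1.54 to 1.77, adjusted p = 1.75e-10 in edgeR). Psmd11 (ENSMUSG00000017428), a lid scaffold subunit, stood at 68.4 and 66.5 TPM with LUP and 42.2 and 43.2 TPM with vehicle, a fold of 1.64 (1.51 to 1.77, adjusted p = 1.64e-09 in edgeR).

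The ubiquitin receptors of the cap, Psmd4 and Adrm1, rose 1.55-fold and 1.47-fold. The lid subunits Psmd3, Psmd12, Psmd13 and Psmd6 rose 1.63-fold, 1.43-fold, 1.39-fold and 1.31-fold. The large scaffold subunits of the base rose less evenly, Psmd1 by 1.44-fold and Psmd2 by 1.15-fold. Psmd2 stood at 171 and 172 TPM with LUP and 158 and 165 TPM with vehicle, the smallest called rise of the 37 genes (adjusted p = 0.000215 in edgeR), and its call was lost in limma on log2(TPM + 1) (log2 change 0.09, adjusted p = 0.186, in a range over all settings of 1.27e-06 to 0.2).

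Psmd8 (ENSMUSG00000030591), a lid subunit, was the exception in both level and direction. It stood at 555 and 546 TPM with LUP and 671 and 689 TPM with vehicle. Both LUP libraries were below both vehicle libraries, and the gene had the highest level of the 37 in all 4 libraries. Its fold was 0.873 (0.828 to 0.920, adjusted p = 0.000161 in edgeR), a log2 change of -0.20, and it stayed below 0 and called under every setting tried (-0.31 to -0.18). Its level was 4.53 and 4.47 times that of Psmd7 in the LUP libraries and 8.49 and 8.68 times in the vehicle libraries. Against Psmd14 it was 7.38 and 7.04 times with LUP and 13.6 and 13.3 times with vehicle. Whether the annotation used for counting bears on this level was not tested. Psmd8 had no fractional counts (tolerance 0.001), and no exon of another gene overlaps it in GENCODE M21, an annotation that may not be the one the authors counted on. Of the other 36 genes, Pomp came nearest to the Psmd8 level in TPM. It averaged 423 ± 6.75 TPM with LUP against 229.5 ± 8.75 TPM with vehicle (SD, n = 2 each). Pomp had fractional counts. By expected counts the nearest was Psmd2, at 7593 and 7413 in the LUP libraries against 10245 and 9815 for Psmd8. For the vehicle libraries these were 5729 and 6777 against 10107 and 11899. Pomp and Psmd7 are listed at 1579 and 1581 bases. In LUP replicate 1, Pomp had 428 TPM from 2387 counts, while Psmd7 had 122 TPM from 2661. Why their TPM differed was not tested.

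The assembly factors divided. Pomp (ENSMUSG00000029649), the maturation factor that is degraded by the core it completes, stood at 428 and 418 TPM with LUP and 223 and 236 TPM with vehicle. Both LUP libraries were far above both vehicle libraries, and the fold was 1.94 (1.80 to 2.09, adjusted p = 1.03e-11 in edgeR). The 4 Psmg genes encode chaperones that pair up to assemble the alpha ring, Psmg1 with Psmg2 and Psmg3 with Psmg4, and Psmg1 had the largest change among them. Psmg1 (ENSMUSG00000022913) stood at 17.9 and 17.1 TPM with LUP and 11.9 and 15.2 TPM with vehicle, a fold of 1.40 (1.14 to 1.71, adjusted p = 0.00682 in edgeR). The vehicle libraries were farther apart than the higher of them was from the LUP libraries. Psmg4 stood at 57.9 and 62.0 TPM with LUP and 53.1 and 49.2 TPM with vehicle, a fold of 1.30 (adjusted p = 0.0128 in edgeR).

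The calls of Psmg1 and Psmg4 were not stable. With DESeq2 the adjusted p was 0.065 for Psmg1 and 0.121 for Psmg4, in ranges over all settings of 0.00165 to 0.102 and 0.00566 to 0.121. Without vehicle replicate 1 the adjusted p of Psmg1 was 0.079 in edgeR, and without vehicle replicate 2 that of Psmg4 was 0.103. Psmg2 stood at 16.3 and 15.2 TPM with LUP and 15.8 and 16.8 TPM with vehicle, overlapping, with a fold of 1.04 whose 95% interval was 0.861 to 1.25 (adjusted p = 0.756 in edgeR). Psmg3 stood at 25.2 and 27.4 TPM with LUP and 26.1 and 24.2 TPM with vehicle, also overlapping, with a fold of 1.09 (0.925 to 1.29, adjusted p = 0.381 in edgeR). The upper ends of both intervals lie below the smallest fitted fold among the 11 core ring genes, 1.37 for Psmb1. The Psmb1 interval itself, 1.279 to 1.466, starts below the upper end for Psmg3, 1.288. No test compared these genes with each other. The 4 Psmg genes had 126 to 278 counts in each library, while Pomp had 1077 to 2387, so small changes were less detectable for them.

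**Figure D3:**
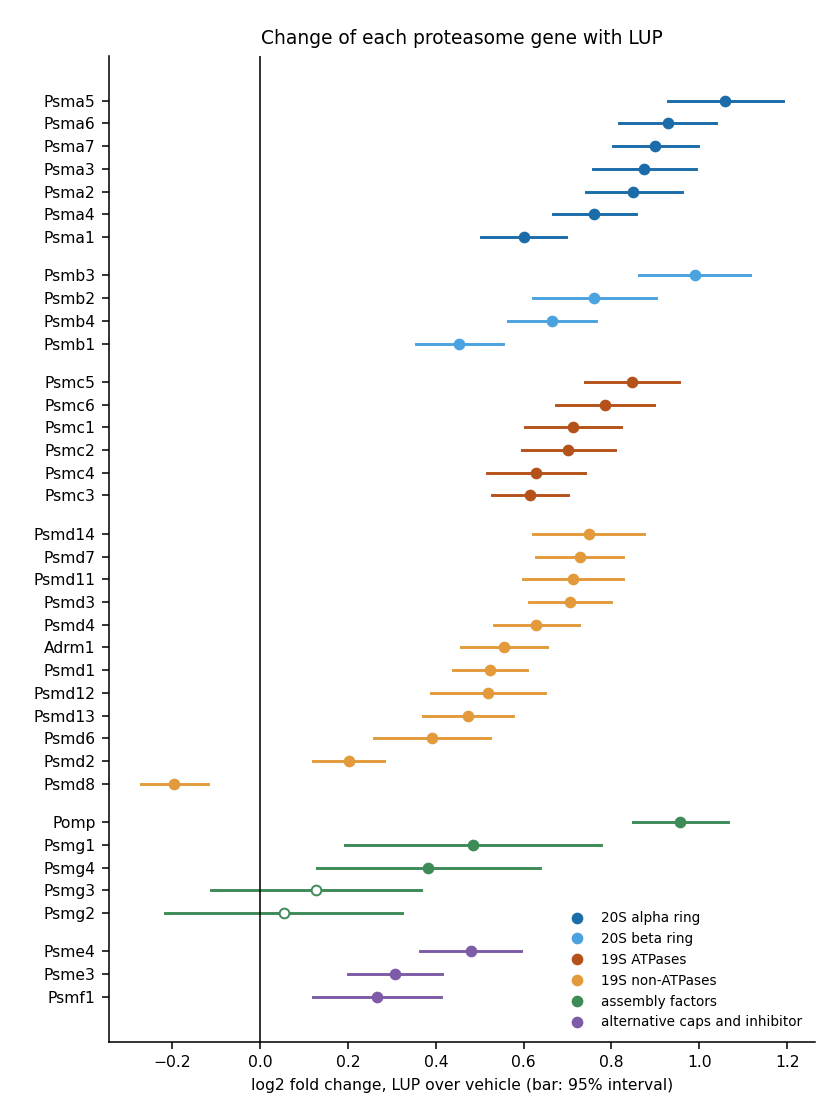
Log2 fold change of each proteasome gene (LUP over vehicle, points) with its 95% interval (bars), sorted within class and coloured by class, open points being not called. Psma5 leads at 1.06, Psmd8 lies below 0 at -0.20, and the intervals of Psmg2 and Psmg3 span 0.

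By median log2 change, the other caps and the inhibitor were the lowest class, at 0.31 against 0.38 for the assembly factors. That order was reversed in limma on log2(TPM + 1) (0.273 against 0.225) and on log2(TPM + 0.1) (0.287 against 0.229). It was also reversed without LUP replicate 2. Psmg2, Psmg3 and Psmd2, of other classes, had smaller fitted rises than all 3 genes of this class. Psme4 (ENSMUSG00000040850), the single-chain cap known as PA200 in its protein form, stood at 24.1 and 21.5 TPM with LUP and 17.2 and 17.5 TPM with vehicle, without overlap, a fold of 1.39 (1.29 to 1.51, adjusted p = 5.56e-07 in edgeR). Psme3 (ENSMUSG00000078652), the nuclear cap subunit related to Psme1 and Psme2, stood at 58.8 and 52.6 TPM with LUP and 47.7 and 47.6 TPM with vehicle. The groups did not overlap, the LUP libraries differed by more than the lower one differed from vehicle, and the fold was 1.24 (1.15 to 1.33, adjusted p = 5.11e-05 in edgeR). That call was lost in limma on log2(TPM + 1) (adjusted p = 0.0761, in a range over all settings of 5.22e-09 to 0.0761). Psmf1, an inhibitor of the core in the test tube, rose 1.20-fold (adjusted p = 0.0037 in edgeR), a call lost with DESeq2 (adjusted p = 0.0603), with quantile normalization (0.0901), in limma on log2(TPM + 1) (0.076) and without vehicle replicate 2 (0.0695 in edgeR), in a range of 0.00104 to 0.0901.

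Other genes of the pathway did not move as one. The 19S assembly chaperones rose in 3 of 3 cases found in the table, beside 27.1% of all tested genes called higher. Psmd10, also known as gankyrin, rose 2.65-fold, to 80.1 and 78.7 TPM with LUP, against 32.3 and 32.2 TPM with vehicle, Psmd5 rose 1.64-fold and Psmd9 1.17-fold. The Psmd9 call was lost with DESeq2 (adjusted p = 0.203), with quantile normalization (0.31), in limma on log2(TPM + 1) (0.324) and without LUP replicate 2 (0.284) or vehicle replicate 2 (0.164), in a range of 0.002 to 0.324. Paaf1, the other listed chaperone, was not matched in the table. Of 15 proteasome-associated factors and ubiquitin receptors, 5 rose, 5 fell and 5 were not called, beside 27.1% higher and 23.7% lower over all tested genes. The count that fell was 3 without LUP replicate 1, without vehicle replicate 1 and in DESeq2, and the count that rose was 3 in both limma fits on TPM. Among these, the stress-linked zinc finger genes Zfand2a and Zfand5 fell to 56.0 ± 2.85 and 51.5 ± 2.87 TPM with LUP, against 101 ± 5.54 and 80.5 ± 5.04 TPM with vehicle (adjusted p = 8.65e-11 and 1.87e-09 in edgeR). The tissue-restricted core subunits were near the floor, Psma8 at 1.66 and 1.98 TPM with LUP and 2.05 and 2.01 TPM with vehicle and Psmb11 with 1 count in 1 LUP library.

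Among 9 listed genes of control by Nfe2l1 and Nfe2l2, 8 were tested, of which 4 rose and 2 fell, beside 27.1% higher and 23.7% lower over all tested genes. The count that fell was 4 without LUP replicate 1. Nfe2l1, the factor that raises proteasome genes when the proteasome is blocked, stood at 142 and 139.98 TPM with LUP and 107 and 100.3 TPM with vehicle, a fold of 1.44 (adjusted p = 7.37e-10 in edgeR). Its partner gene Mafg rose 1.57-fold. Nfe2l2, the related factor of the oxidative stress response, stood at 150.1 and 137 TPM with LUP and 177 and 177 TPM with vehicle, a fold of 0.869 (adjusted p = 0.000351 in edgeR). The p97 segregase, which pulls tagged proteins from complexes and membranes, rose in 5 of 7 genes, beside 27.1% of all tested genes, and in 3 of 7 after quantile normalization and in both limma fits on TPM. Vcp, its catalytic subunit, averaged 239 ± 1.83 TPM with LUP and 169 ± 1.85 TPM with vehicle, a 1.52-fold rise, and its cofactor genes Nploc4 and Nsfl1c rose 1.52-fold and 1.25-fold. Of 6 ubiquitin and E1 genes 2 rose, a share near the 27.1% of all tested genes called higher, and the other 4 were not called. Ubb rose by 1.45-fold and Uba1, the main ubiquitin-activating enzyme, by 1.56-fold. The count that fell was 2 after quantile normalization. Among the other settings that kept all 4 libraries, it was 1 with RLE scaling, a minimum mean of 50 counts and a crossed block. It was also 1 in both limma fits on TPM. This count moved as well when either LUP library was left out.

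**Figure D4:**
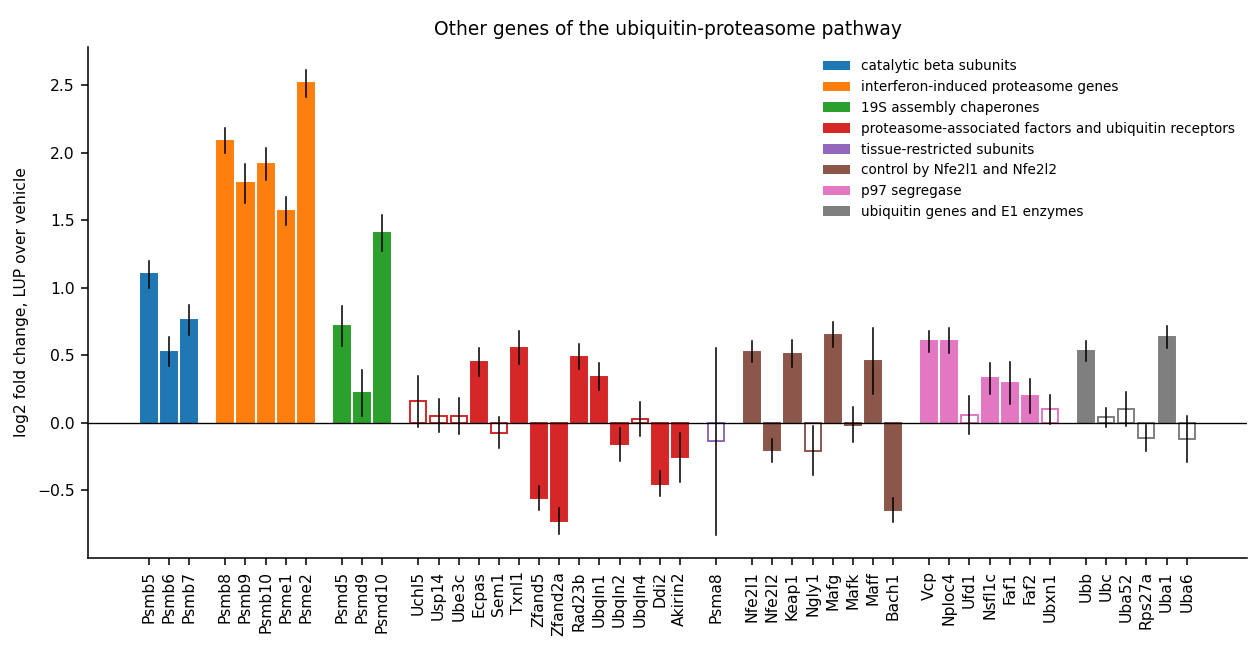
Log2 fold change (LUP over vehicle, bars) with its 95% interval (lines) of 47 other genes of the ubiquitin and proteasome pathway that passed the filter, coloured by list, open bars being not called. The interferon-induced proteasome genes stand highest, with Psme2 at 2.51, and the associated factors lie on both sides of 0, with Zfand2a lowest at -0.73.

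The median of every class stayed above 0 under each of the 13 other settings, and 29 of the 37 genes were called higher under all of them. The share of all tested genes called higher under every setting was not computed. DESeq2 called 31 members higher and 1 lower, beside 20.7% and 17.4% of all genes it tested. With RLE scaling in edgeR the members' counts were 34 and 1, beside 26.9% and 24.0%. After quantile normalization they were 33 and 1, beside 20.7% and 29.3%, a whole-table split of 2764 higher and 3918 lower that was 3621 higher and 3164 lower with TMM scaling. Without a filter on low counts they were 34 and 1, beside 16.4% and 13.9%, and with a minimum mean of 50 counts 34 and 1, beside 30.0% and 28.5%. In limma on log2(TPM + 1) they were 29 and 1, beside 15.4% and 19.6%, and on log2(TPM + 0.1) 29 and 1, beside 15.7% and 20.2%. Among the assembly factors, Pomp was the 1 gene called in DESeq2 and in both limma fits on TPM, and among the other caps and the inhibitor Psme4 was the 1 gene called in both limma fits.

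Leaving out LUP replicate 1 or LUP replicate 2 gave 34 members higher and 1 lower each time, beside 25.0% and 21.5% of genes in both cases. Leaving out vehicle replicate 1 gave 33 and 1, beside 23.9% and 19.8%, and leaving out vehicle replicate 2 gave 32 and 1, beside 22.9% and 19.5%. A replicate block gave 34 and 1, beside 26.5% and 23.0%, and a crossed block 34 and 1, beside 28.7% and 25.5%. Of the 37 genes only Psmg2, which was not called, changed sign, to a log2 change of -0.023 after quantile normalization and to -0.045 and -0.048 in limma on log2(TPM + 1) and log2(TPM + 0.1).

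**Figure D5:**
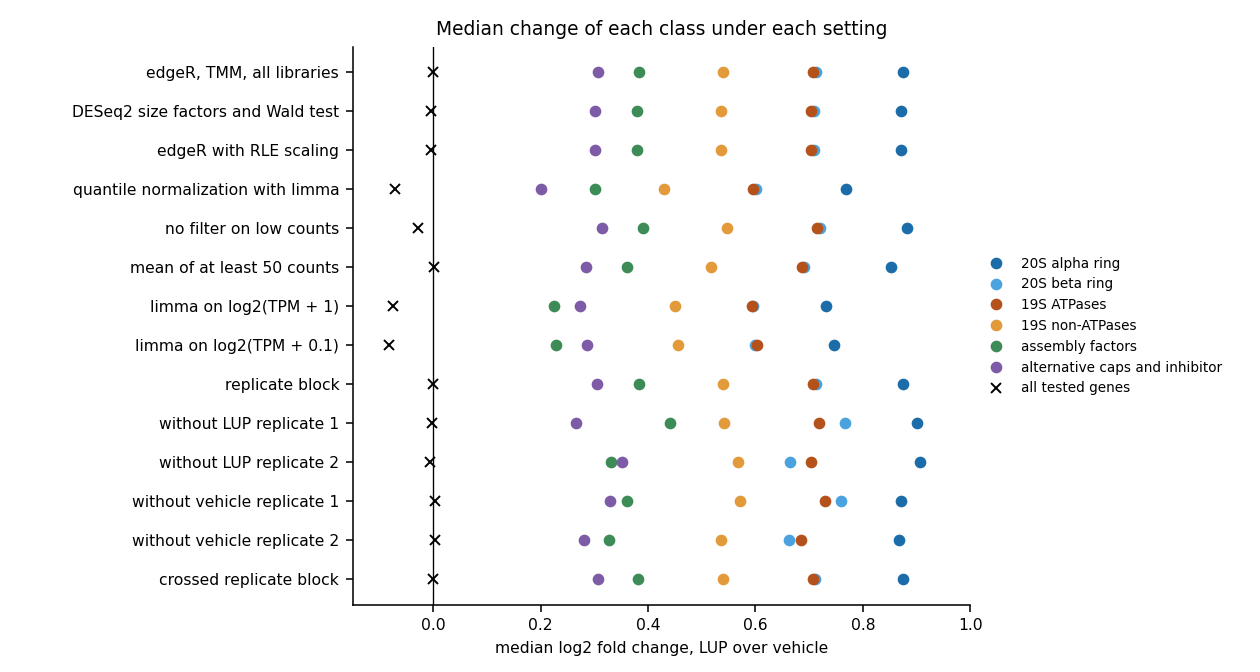
Median log2 fold change (LUP over vehicle) of each class of proteasome genes (coloured points) and of all tested genes (crosses) under edgeR with TMM scaling and 13 other settings. The alpha ring stays highest, at 0.73 to 0.91, all tested genes stay between -0.08 and 0.00, and every class stays above 0.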

How the data were processed

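RNA of mouse peritoneal macrophages, 2 libraries with LUP and 2 with vehicle, was sequenced as TruSeq libraries, per the labels' protocols. Expected counts per gene and TPM were deposited by the authors, whose tools were RSEM, StringTie, HISAT2 and fastp, without versions or roles, per the submitters' processing notes. The authors' fold (a ratio), its log2, p-value and adjusted p-value were deposited too. Their test, the build, annotation and strand setting are not given in the sources used here.

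Expected counts were rounded and tested with edgeR 4.0.16 (R 4.3.3) by its quasi-likelihood test, with TMM scaling, filterByExpr and treatment as the only term, and Benjamini-Hochberg adjustment over 13355 genes. The SE is the log2 change divided by the square root of F. The script was checked on simulated counts. DESeq2 1.42.0 and limma 3.58.1 gave alternatives. Same-group libraries differed beyond counting noise (chi-square per degree of freedom 3.654 for LUP and 2.746 for vehicle) and were counted as 2 each. Expected counts share reads between similar genes. Of the 37 genes, 14 had fractional counts in some library, Psma5, Psmb3 and Pomp among them. In GENCODE M21, 7 overlap an exon of another gene, so their levels are less certain.

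The rule for members used symbols only, but members, gene lists and the rule for named genes were chosen with earlier results of these data known. In each class that rule takes the most abundant gene, the 3 called genes with the largest change (2 in classes of up to 5 genes) and any called against the rest of its class. From each other list it takes up to 3 called genes with the highest level, or up to 2 others. A gene of the associated factors that this rule names is not reported here. Genes outside the rule are members named to account for the whole list. Promoters were taken by a like rule, and motifs were searched on both strands of 250 bases.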

Additional observations from a re-analysis of the deposited data

How the results depend on the processing

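Every class median stayed above 0 under all 13 settings. With limma on log2(TPM + 1) and log2(TPM + 0.1), on 12020 genes, 4212 and 4314 genes were called against 6785 in edgeR, and 1852 and 1886 of them were higher against 3621. The cause was not tested. The members' median log2 change of 0.63 was 0.53 and 0.54 there and 0.52 after quantile normalization, where the median of all genes was -0.08, -0.08 and -0.07. Leaving out 1 library at a time gave a members' median of 0.62 to 0.67, 32 to 34 members higher, 1 lower, 5854 to 6444 genes called, 3162 to 3470 higher and 2692 to 2974 lower. With an arm of 1 library, that library is assumed to vary like the others. Psmg2 turned to -0.023, -0.045 and -0.048 in the settings given above, and Psma8, near the floor, ran from -0.285 to 0.045 with 1 library left out. Of the 37 members, 32 kept their call under all settings, and Psmd2, Psme3, Psmf1, Psmg1 and Psmg4 did not. The share of all tested genes that kept their call was not computed.

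Replicate numbers are shared by the groups but nothing says that they pair the libraries. Same-numbered libraries deviated with a correlation of -0.066 over genes, and of -0.154 over genes with at least 100 counts. With a replicate block 34 members were higher and 1 lower, with a members' median of 0.63 and 6606 genes called. A crossed pairing, added after seeing the data, gave 34 and 1, with 7240 genes called. Depth limits the 4 Psmg genes most, with 126 to 278 counts a library.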

Other observations

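TPM of the 29 subunits of the core and the 19S cap differed among themselves although the particle holds the proteins in fixed numbers. TPM corrects for length, though the listed gene length alone does not give it, and how far length sets the differences between genes was not tested. The SD of log2 TPM across these genes was 0.750 and 0.762 in the LUP libraries and 0.857 and 0.856 in the vehicle libraries. Without Psmd8 it was 0.648 and 0.661 with LUP and 0.661 and 0.656 with vehicle, so that the gap between the groups rested on that 1 gene. Across the 11 core ring genes it was 0.729 and 0.733 with LUP and 0.737 and 0.734 with vehicle. These are descriptions of single libraries with no test.

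Across the 4 beta ring genes the SD of log2 TPM was 0.557 and 0.584 in LUP and 0.351 and 0.422 in vehicle libraries. Of the exon overlaps, Psmd1 shares bases with Htr2b on the opposite strand, which had 276 and 253 counts in the LUP libraries and 537 and 654 in the vehicle libraries, while Psmd1 had 4697 and 4447 counts in LUP and 2794 and 3299 in vehicle libraries.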
